A study of Mus musculus with 20 samples.

Results

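The 5 mature microRNAs described here, miR-15a-5p, miR-15b-5p, miR-16-5p, miR-16-1-3p and miR-503-5p, come from the mouse miR-15, miR-16 and miR-503 hairpins. They are 5 of 1260 miRNA features detected in 20 small RNA libraries. Each was counted from reads of 18 to 26 nt that match the arm of its annotated hairpin exactly, as CPM, reads per 1e6 reads that match miRNA hairpins. The cells were grown from bone marrow of mice 8 to 12 weeks old, with GM-CSF for dendritic cells and M-CSF for macrophages. Wild-type mice were C57BL/6, and miR-155 knockout mice were B6.Cg-Mir155tm1.1Rsky/J. Each cell type and genotype gave 5 libraries: unstimulated (labelled immature for dendritic cells), LPS, oxLDL, eLDL and LDL, so that each condition has 1 library. Dendritic cells received 200 ng/ml LPS overnight at day 8 to 9 of culture, and neither the lipoprotein doses nor the LPS dose for macrophages is known from the labels used here. LPS is a bacterial cell wall component that activates both cell types, LDL is a cholesterol-carrying lipoprotein, oxLDL its oxidised form, and eLDL is given in the labels only by that name.

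A miRNA is cut from a hairpin transcript, first by Drosha and then by Dicer, which leaves a 5p arm, a 3p arm and a terminal loop. One arm is loaded into an Argonaute protein and represses mRNAs that pair with its seed, while the other arm and the loop are usually degraded. The miR-15 and miR-16 family is known for repressing cyclins, cyclin-dependent kinases and the survival factor Bcl2, and the locus on mouse chromosome 14 corresponds to a human region lost in chronic lymphocytic leukaemia. miR-503 is a relative on the X chromosome, transcribed together with miR-322, the mouse counterpart of miR-424.

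The mature sequences of all 5 members were found in RefSeq (GRCm38.p6). They are shown with that of miR-322-5p, the neighbour of miR-503, because the seed, in capitals (bases 2 to 8), separates the members into groups.
miR-15a-5p: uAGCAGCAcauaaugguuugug
miR-15b-5p: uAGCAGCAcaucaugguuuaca
miR-16-5p: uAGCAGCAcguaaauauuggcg
miR-322-5p: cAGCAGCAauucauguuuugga
miR-503-5p: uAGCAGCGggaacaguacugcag
miR-16-1-3p: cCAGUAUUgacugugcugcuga
The seed AGCAGCA is shared by 3 members, miR-15a-5p, miR-15b-5p and miR-16-5p, and by miR-322-5p. In miR-503-5p the last seed base differs, and the passenger arm miR-16-1-3p has an unrelated seed.

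On GRCm38 the Mir16-1 hairpin lies at chr14:61631880-61631972 and Mir15a at chr14:61632027-61632110, both on the minus strand of the long non-coding gene Dleu2. Mir15a is intronic, and Mir16-1 overlaps an exon of at least 1 annotated Dleu2 transcript. Mir15b (chr3:69009772-69009835) and Mir16-2 (chr3:69009902-69009996) lie on the plus strand in an intron of Smc4, which encodes a condensin subunit. Mir503 (chrX:53053984-53054054, minus strand) overlaps no other annotated gene and lies 200 nt from Mir322. The mature miR-16-5p is identical in Mir16-1 and Mir16-2, so its reads cannot be assigned to one locus, whereas miR-16-1-3p comes from Mir16-1.

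The libraries held 10.3 to 22.8 M reads, of which 5.14 to 11.8 M matched miRNA hairpins, and a count of 3 corresponded to 0.254 to 0.584 CPM. In knockout libraries, miR-155-5p had 2 to 7 reads in dendritic cells and 33 to 45 in macrophages, against at least 892 and 38431 in wild type. The blood-cell miRNAs miR-223-3p, miR-142a-3p and miR-142a-5p summed to 16650 to 25930 CPM in dendritic cells and 21450 to 32290 CPM in macrophages. The epithelial miRNAs miR-200a-3p, miR-200b-3p, miR-200c-3p and miR-141-3p summed to 129.5 to 229 CPM in dendritic cells and 173.3 to 239.2 CPM in macrophages. The lymphoid marker miR-150-5p reached 24 CPM in dendritic cells and 167.2 CPM in macrophages, and the erythroid markers miR-451a, miR-144-3p and miR-144-5p summed to at most 9.62 CPM in any library. Another miRNA abundant in erythroid cells, miR-486-5p, stood at 1225 to 1975 CPM in dendritic cells and 411.7 to 720.2 CPM in macrophages. The reads of all macrophage libraries carried an unread base at read position 20 in 6.75 to 7.08% of reads, against at most 8.35e-06% in dendritic cells. Exact matching loses such reads, which touches every comparison between the cell types. The changes of miR-503-5p, miR-15b-5p and the loop RNA between cell types are also given with that position ignored, and the other values between cell types use exact matches. No condition has a replicate, and the labels do not say whether libraries came from separate mice or cultures. The spread behind each p-value is that between libraries after the modelled effects, and may be technical.

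miR-16-5p was by far the most abundant member. It held 1.28% of the hairpin reads in dendritic cells (rank 18) and 1.2% in macrophages (rank 17). Of all reads with the seed AGCAGCA, 94.2 to 95.7% in each library were miR-16-5p. The next members were miR-15b-5p (343.2 ± 93.3 CPM in dendritic cells and 370.6 ± 44 CPM in macrophages, SD, n = 10 libraries over all stimuli and both genotypes) and miR-15a-5p (222.1 ± 39.8 and 209.2 ± 20.9 CPM). In each of the 20 libraries miR-15b-5p exceeded miR-15a-5p. miR-503-5p averaged 79.7 ± 32.1 CPM in dendritic cells and 27.5 ± 8.03 CPM in macrophages, and miR-16-1-3p averaged 48.8 ± 11.8 and 40.2 ± 15.1 CPM. The libraries of these last members overlapped in both cell types, and their order differed between the cell types. Reads count whole molecules, so no scaling by length applies, but ligation favours some sequences, and the order is one of reads.

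**Figure D1:**
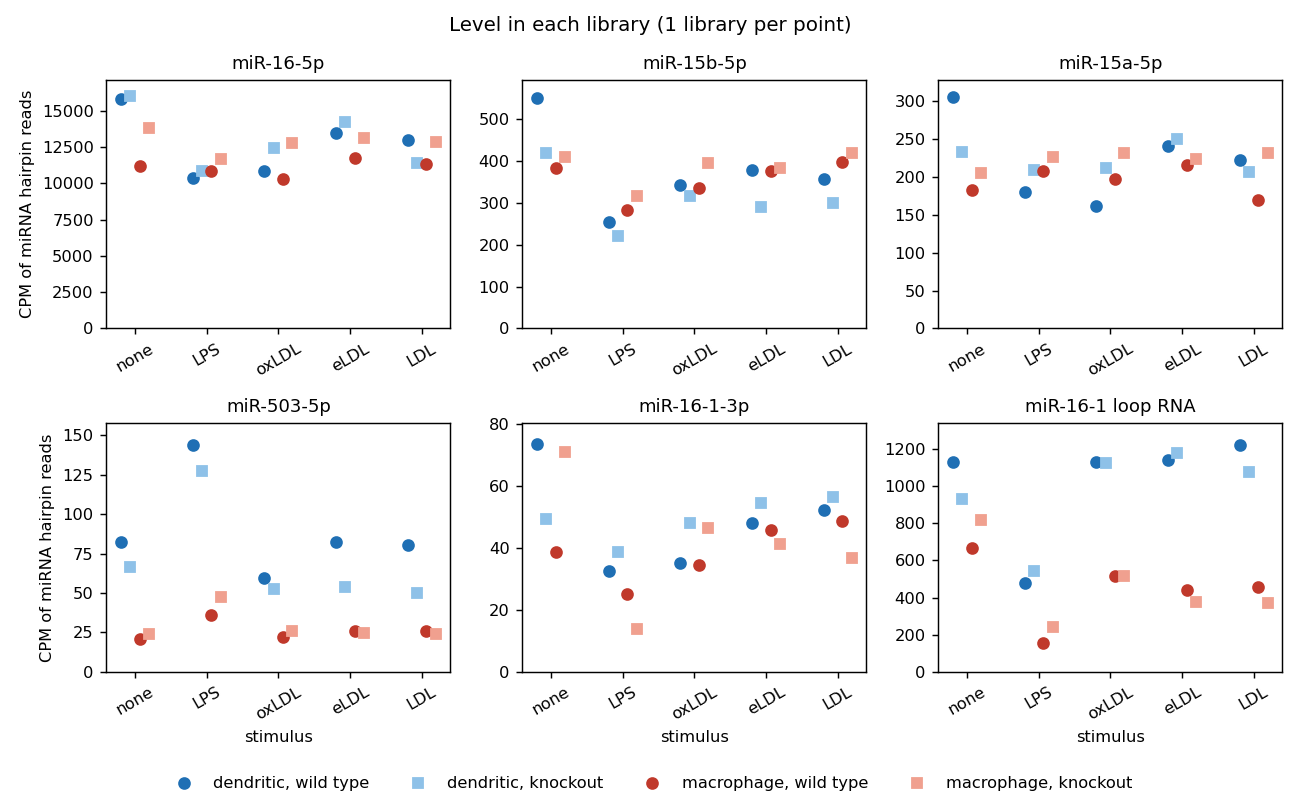
Level of each member and of the loop RNA of Mir16-1 in each library, in CPM of miRNA hairpin reads on a linear axis from 0, by stimulus, with 1 point per library and colour and shape for cell type and genotype. miR-503-5p is highest with LPS in all 4 cultures, whereas the loop RNA is lowest with LPS in all 4.

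LPS moved 3 of the 5 members. miR-503-5p rose in both cell types, miR-15b-5p fell in both, and miR-16-1-3p fell in macrophages. The abundant miR-16-5p and miR-15a-5p did not pass the test in either cell type. Over all 375 features tested, LPS called 22.4% in dendritic cells (84 features, 45 or 12% higher and 39 or 10.4% lower) and 18.7% in macrophages (70 features, 41 or 10.9% higher and 29 or 7.73% lower). Among the members, LPS called 1 higher and 1 lower in dendritic cells, and 1 higher and 2 lower in macrophages. The members' median log2 change was -0.10 in dendritic cells and -0.15 in macrophages, beside 0.00 and 0.08 for all tested features. These calls came from edgeR's quasi-likelihood test at a Benjamini-Hochberg adjusted p of 0.05, with TMM scaling over all 20 libraries. Scaling by total reads instead shifted the median of all features by -0.48 (log2) with LPS in dendritic cells and gave 26 higher and 126 lower calls there, and upper-quartile scaling gave 33 and 46. TMM-based changes are therefore relative to the other miRNAs.

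miR-503-5p stood at 82.0 CPM in unstimulated and 143.9 CPM in LPS-treated wild-type dendritic cells, with 59.5 CPM after oxLDL, 82.4 CPM after eLDL and 80.4 CPM after LDL. In knockout dendritic cells it stood at 66.2 CPM unstimulated and 127.1 CPM with LPS, and at 52.5, 53.7 and 49.8 CPM with oxLDL, eLDL and LDL. The LPS library was the highest of the 5 in both genotypes. Wild-type macrophages had 20.8 CPM unstimulated, 35.9 CPM with LPS and 22.3, 25.7 and 25.6 CPM with oxLDL, eLDL and LDL. The corresponding values in knockout macrophages were 23.7, 47.3, 25.8, 24.4 and 23.8 CPM. Again the LPS library was the highest in each genotype, although it remained below every dendritic cell library.

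The fitted LPS change of miR-503-5p was 1.37 ± 0.20 (log2, SE) in dendritic cells, with an adjusted p of 0.000153 (edgeR) and a rise in 2 of 2 pairs. In macrophages it was 0.89 ± 0.21 (adjusted p = 0.00565, edgeR), also with a rise in 2 of 2 pairs. The difference between the cell types was -0.47 ± 0.29 (adjusted p = 0.35, edgeR), which did not pass the test. Without the knockout LPS library, the macrophage change was 0.61 with an adjusted p of 0.102 (edgeR), and that call was lost. Without any other library the calls held in both cell types.

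Short reads of miR-503-5p were more abundant with LPS in all 4 cultures, and long reads in 1 of them. Its most abundant read, 75.1% of all its reads, ends 3 nt before the RefSeq mature end and keeps the seed.
miR-503-5p, most abundant read: uagcagcgggaacaguacug
Reads of 18 to 20 nt went from 58.6 to 131.7 CPM with LPS in wild-type and from 50.5 to 117.0 CPM in knockout dendritic cells. In macrophages they went from 14.7 to 31.5 CPM in wild type and from 17.3 to 39.9 CPM in knockout. Reads of 22 nt and longer went the other way in 3 of 4 cultures, from 20.8 to 10.6 CPM and from 13.6 to 8.79 CPM in wild-type and knockout dendritic cells, and from 4.43 to 3.13 CPM in wild-type macrophages. Only knockout macrophages had more long reads with LPS, 7.24 against 3.18 CPM. The log2 ratio of short to long reads was 1.40 ± 0.95 higher with LPS (SD of pairs) and higher in 4 of 4 pairs. In knockout macrophages, however, it was nearly level, at 2.44 unstimulated and 2.46 with LPS. Its exact two-sided sign-flip permutation p was 0.13, the smallest that 4 pairs allow. This ratio was chosen after the values were seen.

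**Figure D2:**
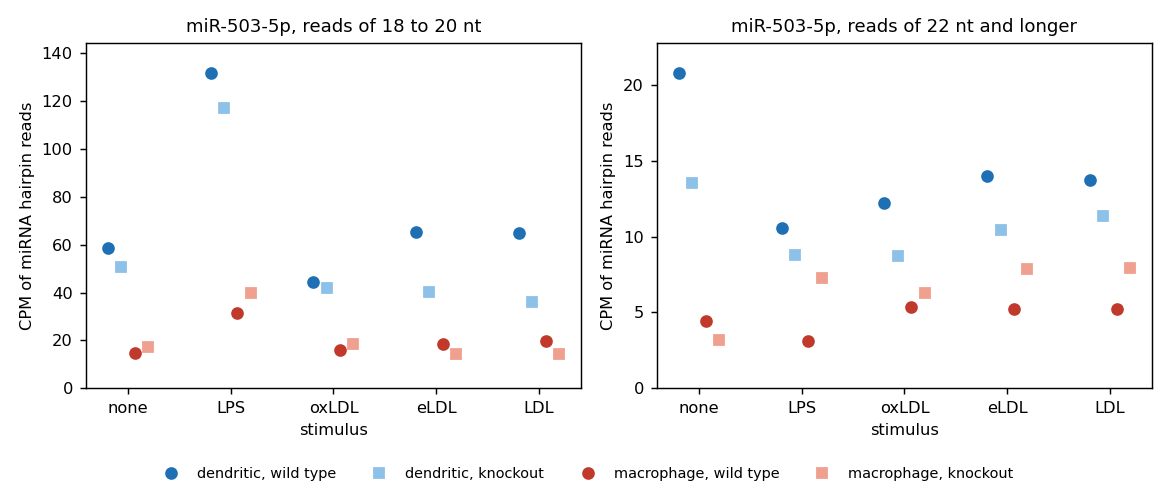
miR-503-5p reads of 18 to 20 nt (left) and of 22 nt and longer (right) in each library, in CPM of miRNA hairpin reads, by stimulus. The short reads are highest with LPS in all 4 cultures, reaching 131.7 CPM, while the long reads reach 20.8 CPM at most.

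The neighbours of miR-503 on the X chromosome were measured beside it. Of 11 listed arms of miR-322, miR-351, miR-542, miR-450a and miR-450b, 7 were tested, and 0 were higher with LPS in either cell type with edgeR (0 at an unadjusted p under 0.05) or DESeq2. Of all features 12% and 10.9% were called higher, so a count of 0 among 7 does not set these arms apart. In dendritic cells 2 of them fell, miR-351-5p by 1.18 ± 0.29 (adjusted p = 0.00804, edgeR) and miR-450b-5p by 1.13 ± 0.39 (adjusted p = 0.0456, edgeR). The call of miR-351-5p was lost without the unstimulated knockout library (adjusted p = 0.0809, edgeR) and held without each other library. That of miR-450b-5p was lost on leaving out 7 of the 20 libraries in turn, with changes of -1.49 to -0.69 over all 20 and adjusted p-values up to 0.37 (edgeR). The change of miR-322-5p, cut from the nearest hairpin, was -0.20 ± 0.19 in dendritic cells and -0.23 ± 0.20 in macrophages, with adjusted p-values of 0.552 and 0.462 (edgeR). Within each library, the log2 ratio of miR-503-5p to miR-322-5p was 1.34 ± 0.27 higher with LPS (SD of pairs), and higher in 4 of 4 pairs. The exact sign-flip permutation p was again 0.13.

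The summed stromal markers were higher with LPS in dendritic cells, and 0 of the 3 tested were called there or in macrophages (edgeR). Of all features 22.4% and 18.7% were called with LPS, so a count of 0 among 3 does not set these markers apart. Their changes in dendritic cells were 1.27 ± 1.25 for miR-143-3p, 1.96 ± 0.70 for miR-199a-3p and 0.03 ± 0.76 for miR-10b-5p. The unadjusted p-values were 0.336, 0.0166 and 0.966 in that order (edgeR). The summed level of 8 listed stromal and mesenchymal miRNAs, of which 7 were detected, was 298.1 CPM with LPS against 146.9 CPM unstimulated in wild type, and 90.8 against 42.2 CPM in knockout. In macrophages the sum was 301.5 against 527.4 CPM in wild type and 220.7 against 30.4 CPM in knockout, while miR-503-5p was higher with LPS in both genotypes. In knockout macrophages miR-10b-5p alone ran from 29.5 to 210.8 CPM over the 5 libraries. Of 4 epithelial miRNAs tested, 2 were called higher with LPS in dendritic cells and 0 in macrophages (edgeR). Of all features, 12% and 10.9% were called higher. With LPS the epithelial sum was 203.7 against 219.5 CPM unstimulated in wild-type and 129.5 against 147.3 CPM in knockout dendritic cells. In macrophages it was 239.2 against 187.7 CPM and 217.6 against 173.3 CPM. The part of stromal or epithelial cells in the rise of miR-503-5p was not tested.

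miR-15b-5p was lower with LPS in each of the 4 cultures. In wild-type dendritic cells it was 550.3 CPM unstimulated and 253.7 CPM with LPS, with 343, 379.8 and 356.4 CPM after oxLDL, eLDL and LDL. In knockout dendritic cells the values in that order were 419.2, 221, 316.3, 291 and 301.1 CPM. Wild-type macrophages had 383.4 CPM unstimulated and 284.5 CPM with LPS, and 337, 376.3 and 399.2 CPM with the lipoproteins, whereas knockout macrophages had 410.2, 315.7, 396.4, 383.1 and 420 CPM. The LPS library was the lowest of each culture, and in macrophages the LPS libraries did not overlap the others.

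The fitted LPS change of miR-15b-5p was -0.53 ± 0.14 in dendritic cells (adjusted p = 0.00909, edgeR) and -0.41 ± 0.14 in macrophages (adjusted p = 0.0436, edgeR). The call in dendritic cells was lost without the unstimulated wild-type library (-0.46, adjusted p = 0.0625, edgeR). In macrophages the call was lost on leaving out 13 of the 20 libraries in turn, with adjusted p-values up to 0.247, and also with upper-quartile scaling (0.0834) and without the filter on low counts (0.609). The change kept its direction in all of these.

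miR-15a-5p did not follow miR-15b-5p, although their seeds are identical. Its levels were 305.5, 179.7, 161.3, 240.7 and 221.9 CPM in wild-type and 232.5, 209.1, 212.3, 250.7 and 206.9 CPM in knockout dendritic cells (unstimulated, LPS, oxLDL, eLDL, LDL). In macrophages they were 182.5, 207.7, 197.7, 215.8 and 169.9 CPM in wild type and 205.7, 226.3, 231.3, 223.6 and 231.6 CPM in knockout. The LPS libraries of macrophages lay inside the range of the others. The LPS change was 0.02 ± 0.16 in dendritic cells and 0.15 ± 0.16 in macrophages, with adjusted p-values of 0.98 and 0.544 (edgeR). With scaling by total reads it was -0.47 in dendritic cells (adjusted p = 0.0395, edgeR), about the shift of the median of all features. The log2 ratio of miR-15a-5p to miR-15b-5p, which no scaling moves, was 0.56 ± 0.18 higher with LPS and higher in 4 of 4 pairs (exact sign-flip permutation p = 0.13).

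miR-16-5p was lower in CPM with LPS in each culture, but in dendritic cells by about as much as other miRNAs. Its levels were 15820 CPM unstimulated and 10380 CPM with LPS in wild-type, and 16040 and 10820 CPM in knockout dendritic cells. The wild-type values with oxLDL, eLDL and LDL were 10820, 13490 and 13020 CPM, and the knockout values were 12460, 14250 and 11400 CPM. Macrophages varied less, with 11170, 10830, 10290, 11760 and 11360 CPM in wild type and 13830, 11710, 12770, 13120 and 12870 CPM in knockout. The fitted LPS change was -0.10 ± 0.12 in dendritic cells and -0.15 ± 0.12 in macrophages, with adjusted p-values of 0.676 and 0.42 (edgeR). With scaling by total reads the change in dendritic cells was -0.59 (adjusted p = 0.00118, edgeR), beside the median of -0.48 over all features.

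**Figure D3:**
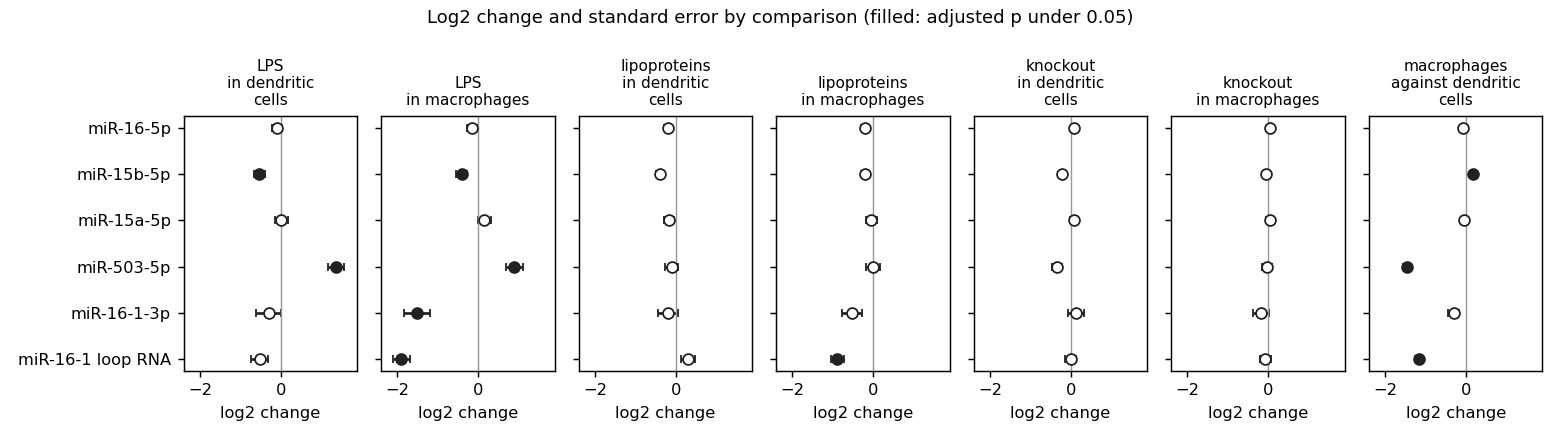
Fitted log2 change (point) and standard error (bar) of each member and of the loop RNA of Mir16-1 in 7 comparisons. Filled points have an adjusted p under 0.05. The filled points with LPS in macrophages run from -1.90 for the loop RNA to 0.89 for miR-503-5p, and in the lipoprotein and knockout comparisons all points of the members are open.

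miR-16-1-3p, the passenger arm of Mir16-1, was lowest with LPS in each of the 4 cultures. Wild-type dendritic cells had 73.4, 32.6, 35.0, 47.9 and 52.2 CPM (unstimulated, LPS, oxLDL, eLDL, LDL), and knockout dendritic cells had 49.4, 38.7, 48.1, 54.4 and 56.3 CPM. The values of wild-type macrophages were 38.7, 25.3, 34.4, 45.8 and 48.7 CPM, and those of knockout macrophages were 70.9, 13.9, 46.3, 41.2 and 36.8 CPM. The pair of knockout macrophage libraries, unstimulated and LPS, held the highest and the lowest macrophage values. The fitted change was -1.51 ± 0.33 in macrophages (adjusted p = 0.00353, edgeR) and -0.30 ± 0.31 in dendritic cells (adjusted p = 0.595, edgeR). The difference between the cell types was -1.21 ± 0.45 (adjusted p = 0.0983, edgeR) and did not pass the test. The macrophage call was lost without the unstimulated knockout library (-0.95, adjusted p = 0.078, edgeR) or without the LPS knockout library (-1.11, adjusted p = 0.068, edgeR).

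Between the arms of Mir16-1, another RNA was more abundant than miR-16-1-3p. It is the terminal loop itself, shown in capitals in the RefSeq hairpin (GRCm38.p6).
Mir16-1: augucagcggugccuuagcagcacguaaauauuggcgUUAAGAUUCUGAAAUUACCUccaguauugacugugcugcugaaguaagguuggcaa
The most abundant read covers hairpin positions 38 to 57, counted from 1 at its 5′ end. It starts directly after the last base of miR-16-5p (positions 16 to 37) and ends directly before the first base of miR-16-1-3p (positions 58 to 79). This 20 nt read made up 98.9% of 111698 loop reads, and among GENCODE M21 transcripts its sequence occurs in Mir16-1 and no other. Loop reads were found for 76 features, of which 5 passed the filter. That of Mir16-1 averaged 725.6 CPM over the libraries, and the next, miR-34a, 19.5 CPM. The loop of Mir16-2, which shares its 5p arm, had 5 reads in all 20 libraries. The loop RNA was singled out after its values were seen.

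**Figure D4:**
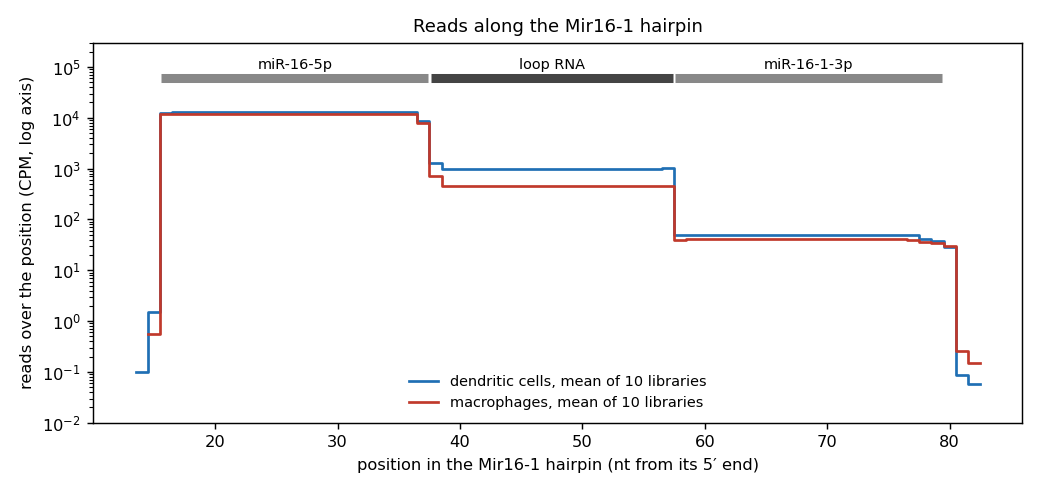
Reads over each position of the Mir16-1 hairpin, as the mean CPM of 10 libraries per cell type on a log axis. Bars mark miR-16-5p (positions 16 to 37), the loop RNA (38 to 57) and miR-16-1-3p (58 to 79). Reads from Mir16-2 cannot be told apart over miR-16-5p, and the loop RNA lies between the arms in level, at 995.5 CPM in dendritic cells and 455.7 CPM in macrophages.

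The loop RNA fell with LPS in macrophages. It had 665.2 CPM unstimulated and 153.5 CPM with LPS in wild type, and 815.5 and 242.4 CPM in knockout. With oxLDL, eLDL and LDL it had 513.8, 439.9 and 457.6 CPM in wild-type and 518.8, 378.3 and 371.8 CPM in knockout macrophages. The LPS libraries were the lowest and the unstimulated libraries the highest in both genotypes. In dendritic cells the levels were 1133, 477.3, 1128, 1142 and 1222 CPM in wild type and 930.2, 542.2, 1124, 1178 and 1078 CPM in knockout, so that there too the LPS library was the lowest.

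The LPS change of the loop RNA was -1.90 ± 0.22 in macrophages (adjusted p = 3.1e-05, edgeR) and -0.52 ± 0.21 in dendritic cells (adjusted p = 0.0896, edgeR). The macrophage call held without each library in turn. The change in dendritic cells passed the test with scaling by total reads or upper quartiles, with DESeq2, without the filter, with each cell type fitted alone and with read position 20 ignored. The LPS effect was more negative in macrophages by 1.38 ± 0.30 (adjusted p = 0.00686, edgeR), among 12.5% of features called in that comparison (21 higher and 26 lower, or 78 and 12 with scaling by total reads). Relative to miR-16-5p, the log2 loop level was 1.11 lower with LPS on average and lower in 4 of 4 pairs (exact sign-flip permutation p = 0.13). Relative to miR-16-1-3p it was 0.35 lower on average, lower in 3 of 4 pairs, with an exact permutation p of 0.625.

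Lipoproteins moved none of the 5 members past the threshold with edgeR, where 1 member in dendritic cells and 2 in macrophages had an unadjusted p under 0.05. In dendritic cells the mean of oxLDL, eLDL and LDL against the unstimulated libraries called 0 of 375 features (0%) with edgeR, 45 at an unadjusted p under 0.05, and 7 with DESeq2. miR-15b-5p was lower in 6 of 6 lipoprotein libraries of dendritic cells than in the unstimulated library of the same genotype, with a change of -0.39 ± 0.11 (unadjusted p = 0.0026, adjusted p = 0.159, edgeR). It was called by DESeq2 (-0.39, adjusted p = 0.00233). In macrophages 13.1% of features were called (20 higher and 29 lower, or 35 and 21 with scaling by total reads), and the members' changes ran from -0.53 ± 0.25 for miR-16-1-3p (adjusted p = 0.209, edgeR) to -0.01 ± 0.17 for miR-503-5p (adjusted p = 0.978, edgeR). The loop RNA was lower in macrophages by 0.89 ± 0.16 on the log2 scale (adjusted p = 0.00196, edgeR) and lower in 6 of 6 libraries. In dendritic cells its change was 0.31 ± 0.18 (adjusted p = 0.53, edgeR), and the difference between the cell types was not tested for lipoproteins.

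Loss of miR-155 changed none of the 5 members past the threshold in either cell type with TMM scaling and the filter of 5 CPM. Of all features, 6.93% (dendritic cells) and 23.5% (macrophages) were called with edgeR. DESeq2 called 0 members too, and with edgeR 2 members in dendritic cells and 0 in macrophages had an unadjusted p under 0.05. The calls in dendritic cells were 12 higher and 14 lower (11 and 22 with scaling by total reads, 18 and 10 by upper quartiles), and in macrophages 34 and 54 (63 and 40, and 108 and 32). In dendritic cells miR-503-5p was lower in knockout in 5 of 5 stimulus pairs, with a change of -0.34 ± 0.13 (adjusted p = 0.134, edgeR), and miR-15b-5p in 5 of 5, with -0.21 ± 0.09 (adjusted p = 0.159, edgeR). With a filter of 50 CPM both passed, at -0.42 (adjusted p = 0.0176, edgeR) and -0.30 (adjusted p = 0.00392, edgeR). That filter also gave 12 higher and 29 lower calls, with a median change of -0.08 over all features tested, against -0.01 with 5 CPM. The stromal marker miR-143-3p was also lower in knockout dendritic cells in 5 of 5 pairs (-4.16 ± 0.90, adjusted p = 0.031, edgeR), and in knockout macrophages in 5 of 5 (-4.06 ± 0.97, adjusted p = 0.0144, edgeR). The other 2 stromal miRNAs tested were not called in either cell type. In dendritic cells and macrophages, miR-199a-3p changed by -0.29 ± 0.44 and -1.65 ± 0.62, and miR-10b-5p by -0.39 ± 0.49 and -0.67 ± 0.46. Of 4 epithelial miRNAs tested, 1 was called lower in knockout dendritic cells and 2 in knockout macrophages, and 0 higher in either (edgeR). The part of stromal or epithelial cells in the lower miR-503-5p and miR-15b-5p was not tested. The other members changed by 0.09 to 0.14 in dendritic cells. In macrophages the members' changes lay between -0.17 ± 0.20 for miR-16-1-3p and 0.05 ± 0.08 for miR-16-5p. In CPM, however, miR-15b-5p, miR-15a-5p and miR-16-5p were each higher in knockout macrophages in 5 of 5 pairs, with ratios of 1.02 to 1.36. With upper-quartile scaling miR-15b-5p was called higher there (edgeR), beside a median change of 0.29 over all features. Of 375 features, 13.9% differed between the cell types in their knockout effect, a comparison added after the values were seen, and none of the 5 members was among them. Of miR-16-5p, the reads were on average 0.023 nt shorter in knockout, and shorter in 9 of 10 pairs (exact sign-flip permutation, adjusted p = 0.0371 over 19 measures). Reads of miR-15b-5p with 1 added 3′ U that the hairpin does not encode made up 0.89% in knockout and 0.491% in wild type, higher in 9 of 10 pairs (exact permutation, adjusted p = 0.0371).

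Between the cell types, miR-503-5p differed most among the members. It was lower in macrophages by 1.45 ± 0.09 on the log2 scale (adjusted p = 4.2e-10, edgeR), in 10 of 10 matched pairs, and the libraries of the cell types did not overlap. miR-15b-5p was higher in macrophages by 0.17 ± 0.06 (adjusted p = 0.0155, edgeR). That call was lost without the wild-type LDL macrophage library (0.15, adjusted p = 0.0626, edgeR), and with upper-quartile scaling the value was -0.056 (adjusted p = 0.444, edgeR). Changes of -0.05 ± 0.07 for miR-15a-5p, -0.06 ± 0.05 for miR-16-5p and -0.30 ± 0.14 for miR-16-1-3p did not pass the test (adjusted p 0.53, 0.288 and 0.0599, edgeR). In this comparison 77.9% of all features were called (148 or 39.5% higher and 144 or 38.4% lower), with 121 higher and 171 lower under upper-quartile scaling. The loop RNA was lower in macrophages by 1.16 ± 0.10 (adjusted p = 1.2e-08, edgeR). With read position 20 ignored, the changes were -1.52 for miR-503-5p, 0.18 for miR-15b-5p and -1.12 for the loop RNA, all called, and the other members were again not called.

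The other arms of the members' hairpins were scarce, from 1.38 CPM (miR-503-3p in macrophages) to 35.7 CPM (miR-16-2-3p in dendritic cells) on average. All 4 were lower in macrophages, by 0.62 ± 0.14 for miR-15b-3p, 0.72 ± 0.12 for miR-16-2-3p, 0.90 ± 0.34 for miR-15a-3p and 1.73 ± 0.32 for miR-503-3p (log2, adjusted p at most 0.0258, edgeR). The call of miR-15a-3p was lost on leaving out 8 of the 20 libraries in turn (adjusted p up to 0.0932, edgeR). With LPS, lipoproteins or knockout 0 of the 4 passed the test with edgeR or DESeq2, and 1 had an unadjusted p under 0.05, miR-15a-3p with LPS in dendritic cells (1.82 ± 0.76, adjusted p = 0.101, edgeR). Of all features, 22.4%, 0% and 6.93% were called in dendritic cells (LPS, lipoproteins, knockout) and 18.7%, 13.1% and 23.5% in macrophages. A count of 0 among 4 scarce arms therefore does not set them apart. Of 6 listed arms of the seed relatives miR-195a, miR-322 and miR-497a, 3 were tested, and all 3 were lower in macrophages. Between the cell types 77.9% of all features were called and 38.4% were called lower in macrophages. Arms that share a hairpin or a cluster are not independent counts. miR-195a-5p was lower by 1.49 ± 0.22, miR-322-5p by 0.99 ± 0.09 and miR-322-3p by 1.41 ± 0.13 (adjusted p at most 1.1e-05, edgeR). Among the X chromosome neighbours, 5 of 7 tested arms were lower in macrophages, and 2, miR-322-3p and miR-450b-3p, were lower in knockout than in wild-type macrophages (-0.67 ± 0.19 and -0.99 ± 0.25, adjusted p 0.0167 and 0.00794, edgeR). With upper-quartile scaling neither passed (adjusted p 0.212 and 0.055, edgeR). Of all 375 features, 23.5% were called for knockout in macrophages (34 higher and 54 lower), so a count of 2 among 7 does not set these arms apart. The log2 ratio of miR-503-5p to miR-322-5p was lower in macrophages by 0.47 ± 0.43 (SD of pairs), in 9 of 10 pairs (exact sign-flip permutation, adjusted p = 0.0445 over 19 measures).

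The 3′ ends of the members also differed. Reads of miR-15a-5p with 1 added U were 14.9% in dendritic cells and 11.2% in macrophages on average, lower in macrophages in 9 of 10 pairs (exact sign-flip permutation, adjusted p = 0.0247). For miR-16-1-3p they were 16.4% and 8.08%, also lower in 9 of 10 pairs (adjusted p = 0.0247, exact permutation). miR-16-5p had added U in 0.0689% and 0.0584% of reads, which did not pass the test (adjusted p = 0.174, exact permutation). In the Mir16-1 hairpin a U directly follows the last base of miR-16-5p, so a U added there counts as encoded. Its shares can therefore not be set beside those of the other members. With the 8 pairs left without the LPS libraries, 0 of the 19 measures passed the test, between cell types or between genotypes. So few pairs do not allow 1 measure alone to pass after adjustment, so this count cannot decide whether the differences depend on LPS. All dendritic cell libraries differ from all macrophage libraries in base calling at position 20, and this difference cannot be told apart from that of the cell types.

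**Figure D5:**
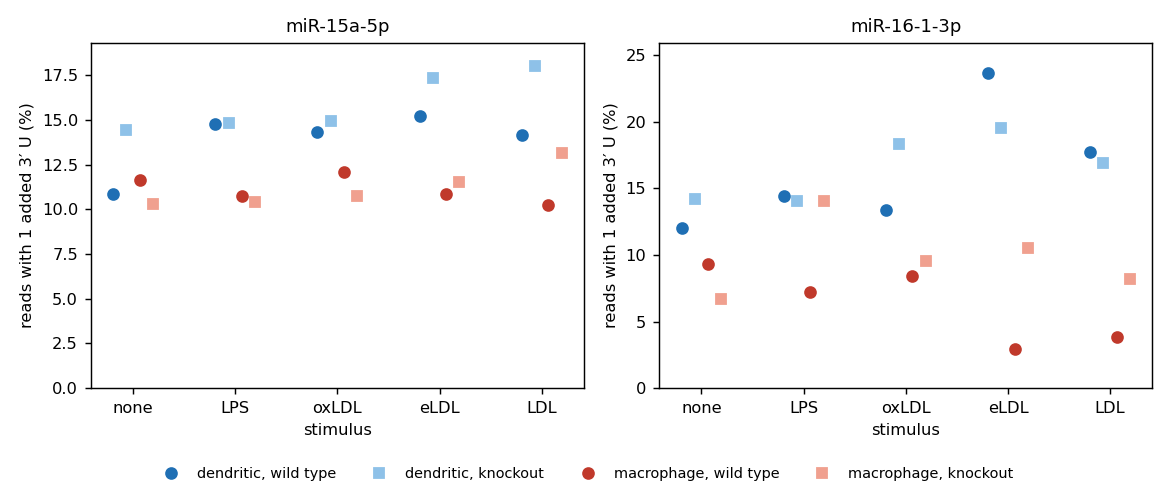
Percent of the reads of miR-15a-5p (left) and miR-16-1-3p (right) that carry 1 added 3′ U absent from the hairpin, by stimulus, with 1 point per library. Macrophages lie at 10.2 to 13.1% for miR-15a-5p, against 10.9 to 18% in dendritic cells, and at 2.92 to 14.1% for miR-16-1-3p, against 12.0 to 23.7%.

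With LPS the reads of all 5 members were shorter on average in 4 of 4 pairs. The mean change was -0.40 nt for miR-503-5p, -0.35 nt for miR-16-1-3p, -0.21 nt for miR-15a-5p and -0.05 nt for miR-15b-5p and miR-16-5p. Shortening was common to most miRNAs. Of 210 features with at least 50 reads in each of the 8 unstimulated and LPS libraries, 62.9% had a lower mean length with LPS in all 4 pairs and 1 feature a higher one, with a median change of -0.15 nt. On that scale miR-503-5p ranked 31st from the most shortened, and miR-16-5p ranked 160th.

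Some miRNAs followed the members closely over the 20 libraries, by Pearson correlation of log2(TMM-scaled CPM + 1) after subtracting the mean of each culture. These libraries share scaling and stimuli, and the values are a description. The 3 most like miR-503-5p were miR-147-3p (r = 0.917), miR-92b-3p (0.874) and miR-27b-3p (0.871). All 3 rose with LPS in both cell types, which their choice by likeness to miR-503-5p over the same libraries favours. miR-15b-5p was most like miR-148a-5p (0.806), miR-152-5p (0.772) and miR-181a-1-3p (0.761), and miR-15a-5p most like miR-669o-3p (0.802), miR-501-5p (0.656) and miR-6240 (0.637). For miR-16-5p they were miR-140-3p (0.822), miR-362-5p (0.678) and miR-486-3p (0.643), and for miR-16-1-3p miR-135a-5p (0.837), miR-135a-1-3p (0.769) and miR-33-5p (0.713). Within the family, miR-16-5p had r = 0.562 with miR-15b-5p and 0.466 with miR-15a-5p, while miR-15a-5p and miR-15b-5p had r = -0.04. The loop RNA had r = 0.667 with miR-16-1-3p and 0.105 with miR-16-5p.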

How the data were processed

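Small RNA libraries were made from Trizol-extracted total RNA with a TruSeq kit, according to the protocols in the labels. The only tool listed, per the submitters' processing notes, is CASAVA 1.8.2. Each deposited file lists distinct sequences with a whole-number read count, and the adapter trimming is not given in the sources used here. Exact matches of 18 to 26 nt reads were sought in 1174 miRNA hairpins of GENCODE M21 (GRCm38). A read belonged to an arm if it started within 2 nt of the arm's most common 5′ end, with arms taken from RefSeq mature positions, or from RNAfold 2.7.2 where RefSeq had none. Reads starting between both arms formed loop features. Reads fitting several features were divided equally.

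Counts of features with at least 5 CPM in 2 libraries (375) were fitted with edgeR 4.0.16 (R 4.3.3) and TMM in 1 model with a term for each of the 4 cultures and for each stimulus in each cell type, which leaves 8 residual degrees of freedom. LPS effects rest on 2 pairs, knockout effects on 5 and cell type on 10. Robust quasi-likelihood F tests were adjusted by Benjamini-Hochberg at 0.05. SE values were obtained by dividing each log2 change by the root of its F statistic. Ratios, mean lengths and added bases were compared by two-sided exact sign-flip permutation over matched pairs, adjusted over 19 measures. The fit was tested on simulated data. For LPS in dendritic cells it recovered 42 of 71 features given a log2 change of 1, with 1 false call.

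The members, lists and tests were chosen with earlier results of these data known. Named are the members, the other arms, seed relatives, X chromosome neighbours, and the 3 most correlated miRNAs per member. The loop RNA, the ratios built from it or from short and long reads, the comparison of knockout effects and the matching that ignores position 20 were added after seeing the data. Alternatives were other scalings, filters, DESeq2 1.42.0, lengths of 20 to 24 nt, each cell type alone, and leaving out each library.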

Additional observations from a re-analysis of the deposited data

Results flagged for a closer look

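The loop RNA of Mir16-1 met a rule for differences between groups. Its LPS effect differed between the cell types by -1.38 ± 0.30 on the log2 scale (macrophages minus dendritic cells, adjusted p = 0.00686, edgeR). It fell from 665.2 to 153.5 CPM and from 815.5 to 242.4 CPM in macrophages, against 1133 to 477.3 CPM and 930.2 to 542.2 CPM in dendritic cells. The difference held without each library in turn, between -1.88 and -0.98, with adjusted p-values up to 0.033, and with scaling by total reads it was -0.90 (adjusted p = 0.024).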

How the results depend on the processing

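By replicate number, no paired analysis was possible because the labels give none. The matched pairs of the report share cell type, genotype or stimulus, and no number. Counts of calls that moved by over 1.5 times were as follows. Scaling by total reads gave 152 calls for LPS in dendritic cells (84 in the report), 90 for its difference between cell types (47) and 1 for lipoproteins in dendritic cells (0). Upper-quartile scaling gave 140 for knockout in macrophages (88). The filter of 50 CPM gave 2 for lipoproteins and 41 for knockout in dendritic cells (26), and 164 between cell types (292, of fewer features tested). DESeq2 gave 7 and 47 for lipoproteins and knockout in dendritic cells. For lipoproteins in dendritic cells, no filter gave 7, reads of 20 to 24 nt 1, position 20 ignored 1, and each cell type alone 4. Leaving out each library gave 52 to 94 calls for LPS in dendritic cells (52 without the wild-type LPS library), and 23 to 51 for the difference of LPS effects (23, 27 and 30 without the wild-type unstimulated or LPS dendritic cell or the knockout LPS macrophage library). It gave 0 to 4 for lipoproteins in dendritic cells, 23 to 54 in macrophages (23 without the wild-type unstimulated library), and 16 to 34 for knockout in dendritic cells (16 or 17 without the wild-type oxLDL or the knockout unstimulated, oxLDL or eLDL library). Without the LPS libraries, 0 measures of ratios, lengths and added bases were called between cell types and 0 between genotypes. The 8 pairs left in each are too few for 1 measure alone to pass.

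Members that changed sign with a call in either setting were miR-15a-5p with LPS in dendritic cells under total scaling (-0.47), and miR-15b-5p under upper-quartile scaling for knockout in macrophages (0.29) and between cell types (-0.056). Other than for the scalings and the smaller number of features or pairs, the cause was not tested. Of all other alternatives for the members and the loop RNA, apart from leaving out libraries, 383 kept the call or its absence, 26 gained a call and 2 lost one. Among the 383, changes called in neither setting may differ in sign.

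With 1 library per condition, a missed call does not show that a member was unchanged. Below 50 CPM, miR-503-5p in macrophages and miR-16-1-3p rest on few reads.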

Other observations

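Beside the loop of Mir16-1, 4 terminal loops were abundant enough to be tested, those of miR-34a, miR-30e, miR-188 and miR-342. With LPS in dendritic cells, miR-188-loop fell by 1.44 ± 0.47 in log2 units (adjusted p = 0.0373, edgeR). In macrophages its change with LPS was -1.14 ± 0.49 (adjusted p = 0.124, edgeR), and with lipoproteins it fell by 1.34 ± 0.37 (adjusted p = 0.0218, edgeR). In macrophages with LPS, the change of miR-342-loop was -2.68 ± 1.02 (adjusted p = 0.0914, edgeR). Against dendritic cells, macrophages had less miR-188-loop and miR-342-loop (-1.30 ± 0.22 and -1.45 ± 0.40) and more miR-34a-loop and miR-30e-loop (0.72 ± 0.26 and 0.77 ± 0.18), all with an adjusted p at most 0.018 (edgeR). These loops averaged 19.5 CPM (miR-34a), 13.8 CPM (miR-30e), 7.3 CPM (miR-188) and 6.95 CPM (miR-342).

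An assignment of arms by the predicted hairpin loop alone would add the loop reads of Mir16-1 to its 3p arm. The loop RNA had 6.08 to 32.3 reads for each read of miR-16-1-3p, so that such a sum would mostly follow the loop RNA.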
